A study of Mus musculus with 4 samples.

Results

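The comparison described here sets the mouse sample titled APNL against the sample titled Fibroblast, each measured on 1 Illumina BeadChip array hybridised with biotin-labelled RNA. Its members were selected by detection alone: a gene was compared when its probe had a detection p-value under 0.01 on at least 1 of the 2 arrays. This gave 8242 of the 16593 genes with a probe, and 9184 genes were detected on at least 1 of the 4 arrays of the series. The other samples are titled APNL+AuEMF and Primary neuron, again with 1 array each. By its title the series is about making dopamine neurons by direct conversion under an electromagnetic field. From general knowledge of that work APNL is read as a set of introduced transcription factors that includes Pitx3, Nurr1 (gene Nr4a2) and Lmx1a. The labels give no strain, age, tissue of origin, vector, delivery control or time in culture for any of the 4 groups, so factors, gene delivery and days in culture cannot be told apart in the APNL sample. With 1 array per group there is no replicate, no standard deviation and no test, and every difference below is between these 2 arrays.

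Direct conversion aims to move a fibroblast, the connective tissue cell that makes collagen matrix, to a neuronal state by forcing expression of neuronal transcription factors, without a pluripotent intermediate. Lmx1a, Nurr1 and Pitx3 act in the development of midbrain dopamine neurons, which make dopamine with tyrosine hydroxylase and aromatic amino acid decarboxylase. Cells that sense foreign nucleic acid or cytokines switch on another programme, in which interferon signalling induces antiviral genes and NF-kB induces chemokines.

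Levels are log2 intensities after background correction with an offset of 16 and quantile normalization. Differences are APNL minus Fibroblast on that scale, and a gene is called higher or lower at 2-fold or more. Of the compared genes 7749 were detected on both arrays, 395 on APNL alone and 98 on Fibroblast alone. For a gene detected on 1 array the difference is a lower bound, taken against the lowest detected level of the other array (7.13 on Fibroblast, 6.93 on APNL) or the gene's own level there if that is higher. A gene that entered through detection on APNL alone was selected partly for being higher there, so counts over compared genes are descriptions. Each "at least" fold holds for the background-corrected scale and this detection limit. The intensity units given beside it are uncorrected and their ratio is smaller for several genes. In bulk RNA a smaller number of cells with a high level and a larger number with a low level give the same value.

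The 4 promoters below are shown because their genes were among the higher genes of the antiviral and chemokine groups, whose induction is known to run through short promoter motifs. Each is 300 bases of RefSeq's mouse build GRCm38.p6, 250 before and 50 after the start of the gene, read along the gene's strand. Capitals mark matches, on either strand, to a pair of GAAA with any 2 bases between them, the core of the interferon-stimulated response element, in Ifit3, Isg15 and Cxcl10, and to GGGA followed by any base and TTTCC, one form of the NF-kB site, in Cxcl1. Overlapping matches are run together.
Ifit3 (chr19:34583279-34583578, + strand): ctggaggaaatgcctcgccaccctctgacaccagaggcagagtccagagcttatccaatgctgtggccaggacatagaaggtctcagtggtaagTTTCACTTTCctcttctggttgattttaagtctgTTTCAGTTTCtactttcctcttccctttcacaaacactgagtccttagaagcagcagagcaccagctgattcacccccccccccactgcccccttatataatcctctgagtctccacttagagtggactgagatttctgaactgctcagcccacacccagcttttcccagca
Isg15 (chr4:156200769-156201068, - strand): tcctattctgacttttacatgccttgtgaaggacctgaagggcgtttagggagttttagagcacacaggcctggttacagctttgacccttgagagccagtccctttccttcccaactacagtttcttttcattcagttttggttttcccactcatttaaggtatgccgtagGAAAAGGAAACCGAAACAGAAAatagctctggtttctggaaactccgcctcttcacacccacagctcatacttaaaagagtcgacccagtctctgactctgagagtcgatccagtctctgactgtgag
Cxcl10 (chr5:92348840-92349139, - strand): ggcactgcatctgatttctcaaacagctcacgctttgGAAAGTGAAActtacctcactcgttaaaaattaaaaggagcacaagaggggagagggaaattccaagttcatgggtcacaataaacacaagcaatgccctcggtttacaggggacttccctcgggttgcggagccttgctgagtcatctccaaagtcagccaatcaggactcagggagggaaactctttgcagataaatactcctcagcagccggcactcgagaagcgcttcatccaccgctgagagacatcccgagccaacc
Cxcl1 (chr5:90890995-90891294, + strand): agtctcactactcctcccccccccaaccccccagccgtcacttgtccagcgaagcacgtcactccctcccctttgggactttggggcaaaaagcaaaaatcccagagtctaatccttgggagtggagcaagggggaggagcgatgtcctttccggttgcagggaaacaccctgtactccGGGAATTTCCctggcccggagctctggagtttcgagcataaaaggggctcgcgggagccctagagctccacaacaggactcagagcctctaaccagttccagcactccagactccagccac

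Ifit3 held 2 matches, on the reverse strand, Isg15 held 3 that overlap and Cxcl10 held 1. Promoters were in the table for 95 of the 128 genes called higher, and 13 of these 95 (13.7%) held the response element core, against 3.65% of the 6737 compared genes with a promoter and 3.44% of all 32851 promoters in the table. Among interferon-stimulated genes the motif stood in 6 of 9 promoters of higher genes (Gbp2, Gbp3, Ifit3, Igtp, Isg15 and Rsad2) and in 7 of 13 promoters of compared genes under 2-fold. The other promoters of higher genes with this motif were those of Cxcl10, Gpm6a, Nsg2, Pde1b, Saa3, Sst and Ttyh1, so the letters also occurred before genes with no known antiviral role, such as Sst. The NF-kB form was found before Cxcl1 and Il6 alone among the higher genes, 2 of 95 promoters (2.11%), against 0.490% of the compared genes and 0.411% of all promoters. These motifs were chosen with the results known, are matches of letters and do not show that a factor was bound.

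APNL differed from Fibroblast in 1 direction at the 2-fold threshold. Higher genes numbered 128, or 1.55% of the 8242 compared, and lower genes 0, or 0%. Antiviral and chemokine genes (Ifit3, Cxcl1, Rsad2, Cxcl10), neuronal vesicle and neuropeptide genes (Cplx1, Sst, Nsg2, Scg5) and the acute-phase gene Saa3 led the higher genes. The middle of the distribution was narrow, since 83.2% of genes detected on both arrays differed by less than 0.25, and the median over all compared genes was -0.01. The 50th highest difference among genes detected on both arrays was 1.31 and the 50th lowest was -0.55. At 1.5-fold, a threshold added after the data were seen, 262 genes (3.18%) were higher and 42 (0.51%) lower. Leaving out the background correction gave 78 higher genes, and asking that both arrays detect a gene gave 77, with 0 lower each time. Of the 60 higher genes under the naming rule, 14 were under 2-fold without background correction, among them Npy, Rbfox3, Myt1l, Il6, Ccl3, Psmb9 and Kcnc1. The same alternative lowered the differences of Cplx1 to 2.69, Sst to 2.74, Cxcl5 to 2.16 and Scg5 to 2.04, and the bounds of Cxcl10 to 2.44, Mpped1 to 2.35, Ttr to 2.04, Dnajc6 to 1.78, Insm1 to 1.55 and Otx1 to 1.34.

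**Figure D1:**
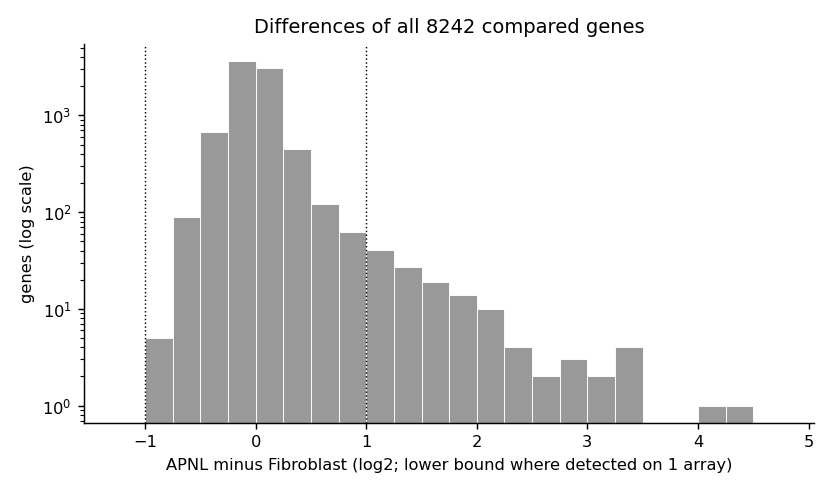
Differences of the 8242 compared genes between APNL and Fibroblast, in bins of 0.25 on the log2 scale, with the number of genes on a log axis. Dotted lines stand at 2-fold lower and higher, and the right tail holds 128 genes with a highest value of 4.44 (Ifit3), while the left side ends before the 2-fold line.

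The higher genes were mostly of low or middle level. Of the 128 genes, 58 lay in the lowest of 5 equal bins of mean level (6.04 to 8.21) and 49 in the next (8.21 to 9.56), 12 in the third, 9 in the fourth and 0 in the highest (12.12 to 16.07). The spread of all differences also narrowed with level, from a 1st to 99th percentile range of -0.64 to 1.79 in the lowest bin to -0.27 to 0.32 in the highest. In the highest bin the most changed gene was Ier3, an early response gene, at 0.93. The median difference stayed between -0.04 and -0.0033 in all 5 bins. Other probes of the same genes were read too, and 57 of these 81 probes were detected on neither array. The other 24, of 21 higher genes, were detected on at least 1 of the 2 arrays and were all above 0. Of the 24, 19 measured 2-fold or more, or 12 with undetected levels at the bound. Many of the 24 were detected on APNL alone and so entered partly through being higher there, which makes their sign no independent check. A second Gad1 probe differed by 3.77 and a second Dcx probe by 2.00, while a second Ctnnd2 probe differed by 0.13 and one of Ppm1e by 0.32. With the mean over all probes of a gene in place of that with the highest mean, 12 of the 60 named higher genes were under 2-fold, among them Mapt at 0.75, Ctnnd2 at 0.58, Gria2 at 0.93 and Rbfox1 at 0.24, and Ifit3 was at 2.52. For Gpm6a, Sh3gl2, Myt1l, Rbfox3, Acsl6, Kcnc1 and Nnat the averaged level gave a bound of 0, so their 2-fold calls rest on the probe with the highest mean.

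**Figure D2:**
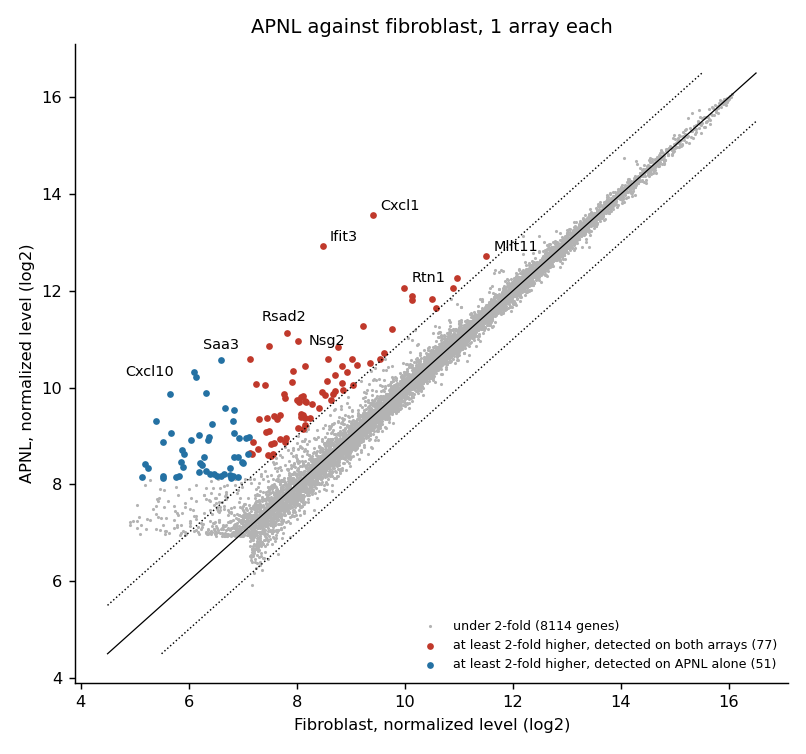
Normalized level of each compared gene on the Fibroblast array (horizontal) and the APNL array (vertical), log2, with the line of equality and dotted lines at 2-fold. Red points are the 77 higher genes detected on both arrays and blue points the 51 detected on APNL alone, and the grey points beyond a dotted line, such as Apol10b below the lower one, are genes detected on 1 array whose bound is under 2-fold.

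Pitx3, Lmx1a and Nr4a2, taken to be among the introduced factors, were read first as a check of the label. Pitx3 was not detected on any of the 4 arrays, at 5.08 on Fibroblast and 5.56 on APNL. The 3 Lmx1a probes were not detected on Fibroblast or APNL, and the one with the highest mean over the 4 arrays read 5.07 and 5.39 there against a detected 6.67 on Primary neuron. Nr4a2 was detected on both arrays at 7.19 and 7.26, a difference of 0.07 close to the detection limit. None of these 3 genes differed by 2-fold. Where the probes lie in their transcripts was not known, and a probe outside the introduced coding sequence would not see it, so these values do not check delivery.

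Genes of neuronal cell biology formed the larger group on the higher side. The 11 neuronal lists held 277 genes, of which 128 were compared, 31 were higher (24.2%) and 0 lower, beside 1.55% over all compared genes. Lists were written with earlier results of these data known. The pan-neuronal list had 12 of 30 compared genes higher and 18 neither, with a median of 0.42 at bounds and 1.21 as measured. Mapt, which encodes the microtubule protein tau, read 297 intensity units on Fibroblast and 1276 on APNL, or levels of 7.93 and 10.33. Dcx, the doublecortin gene of young migrating neurons, read 7.79 and 9.78, and Stmn2, a growth cone stathmin gene, 9.76 and 11.21. Rtn1, a neuronal reticulon gene, stood at 9.99 on Fibroblast already and at 12.07 on APNL. Rbfox3, which encodes the nuclear marker NeuN, was not detected on Fibroblast and was at least 2.45-fold higher. Tubb3, a neuronal tubulin gene, was not detected on Fibroblast or APNL (6.88 and 5.95) and was detected on Primary neuron, close to the limit. Snap25, a synaptic fusion gene, was not detected on any of the 4 arrays, Primary neuron included, so its probe gave no reading on neurons. Map2, a dendritic microtubule gene, was high on Fibroblast already, at 11.62, and read 12.09 on APNL.

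Release and secretion genes had the largest neuronal differences. Cplx1, which encodes complexin of the synaptic release machinery, read 216 units on Fibroblast and 1516 on APNL, a difference of 3.45. Its Fibroblast level of 7.14 was close to the detection limit of 7.13. The synaptic vesicle list held 6 higher genes among 17 compared, and its median was 0.61 at bounds. These included Syp, synaptophysin, at 1.53, Syt4, a synaptotagmin gene, at 1.57, and Sh3gl2, the endophilin gene of vesicle recycling, at least 3.56-fold. Of 12 compared dense-core granule and neuropeptide genes 7 were higher, with a median of 1.04 at bounds (0.41 with detection p under 0.05). Scg5, the chaperone of a prohormone convertase, differed by 2.64, Scg3, a granin gene, by at least 2.84-fold, and Cadps, which primes granules for release, by 2.04. Sst, the somatostatin gene, read 245 units on Fibroblast and 1811 on APNL, a difference of 3.37. Npy, neuropeptide Y, differed by 1.14. Postsynaptic and excitability genes were mostly undetected: 11 of 18 postsynaptic genes with a probe, 15 of 23 voltage-gated channel genes and 19 of 26 transmitter receptor genes were below detection on both arrays. Their higher members were Camk2b, a synaptic kinase subunit gene, at 2.20, Kcnc1, a fast potassium channel gene, at least 2.00-fold, and Gria2, an AMPA receptor subunit gene, at 1.71.

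Of the transmitter lists, the GABAergic list held the most higher genes, beside 1.55% higher over all compared genes. Of the 11 compared GABAergic genes 5 were higher, and the median was 0.80 at bounds. Gad1, the enzyme of GABA synthesis, was not detected on Fibroblast (176 units) and read 938 on APNL, at least 6.73-fold higher on the corrected scale, a log2 bound of 2.75 that was 2.05 without background correction. Slc32a1, the vesicular GABA transporter gene, was at least 2.98-fold higher, and Dlx1, a transcription factor gene of forebrain interneurons, differed by 1.01, just inside the threshold. Among 8 glutamatergic genes 1 was higher, Gria2 named above, with Slc17a6, a vesicular glutamate transporter gene, at 0.66. Tbr1, a cortical factor gene, went from not detected (5.08) to a detected 7.33, only 1.15-fold above the bound.

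None of the 10 compared genes of dopamine synthesis, transport and breakdown was higher or lower, and their median was 0.03. With 1.55% of all compared genes higher, 0 of 10 is no result about these genes. Th, tyrosine hydroxylase, was not detected on either array, at 5.09 on Fibroblast and 5.02 on APNL, nor on Primary neuron at 5.48. The dopamine transporter gene Slc6a3 read 5.07 and 5.14 and the vesicular transporter gene Slc18a2 5.40 and 5.18, again below detection on both. Their levels therefore bound the signal and do not show that the transcripts were absent. Ddc, the decarboxylase, was detected on both arrays and slightly lower on APNL, at 9.51 and 9.27. Gch1, which makes the cofactor of tyrosine hydroxylase, differed most, at 9.47 and 10.16, a difference of 0.69. Aldh1a1, an aldehyde dehydrogenase gene of some dopamine neurons, differed by 0.32, and the cofactor genes Pts, Qdpr and Spr differed by 0.19, 0.03 and 0.03. On this list 9 of 24 genes with a probe were detected on Fibroblast and 9 on APNL.

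Midbrain transcription factor genes detected on both arrays differed little, and Myt1l and Otx2 were detected on APNL alone. Of 7 compared genes 1 was higher, beside 1.55% over all compared genes, and the median was -0.06. Myt1l, a neuronal zinc finger gene that represses other fates and is not specific to midbrain, was at least 2.30-fold higher. It was under 2-fold without background correction and also with probes averaged. Otx2, a forebrain and midbrain factor gene, read 4.92 on Fibroblast, not detected, and a detected 7.17 on APNL, a measured difference of 2.25 with a lower bound of 0.04. En1, Msx1, Ebf1 and Ebf3 were detected on Fibroblast already and differed by -0.08, -0.06, -0.32 and -0.23. Foxa2, Lmx1b and En2 were not detected on either array.

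**Figure D3:**
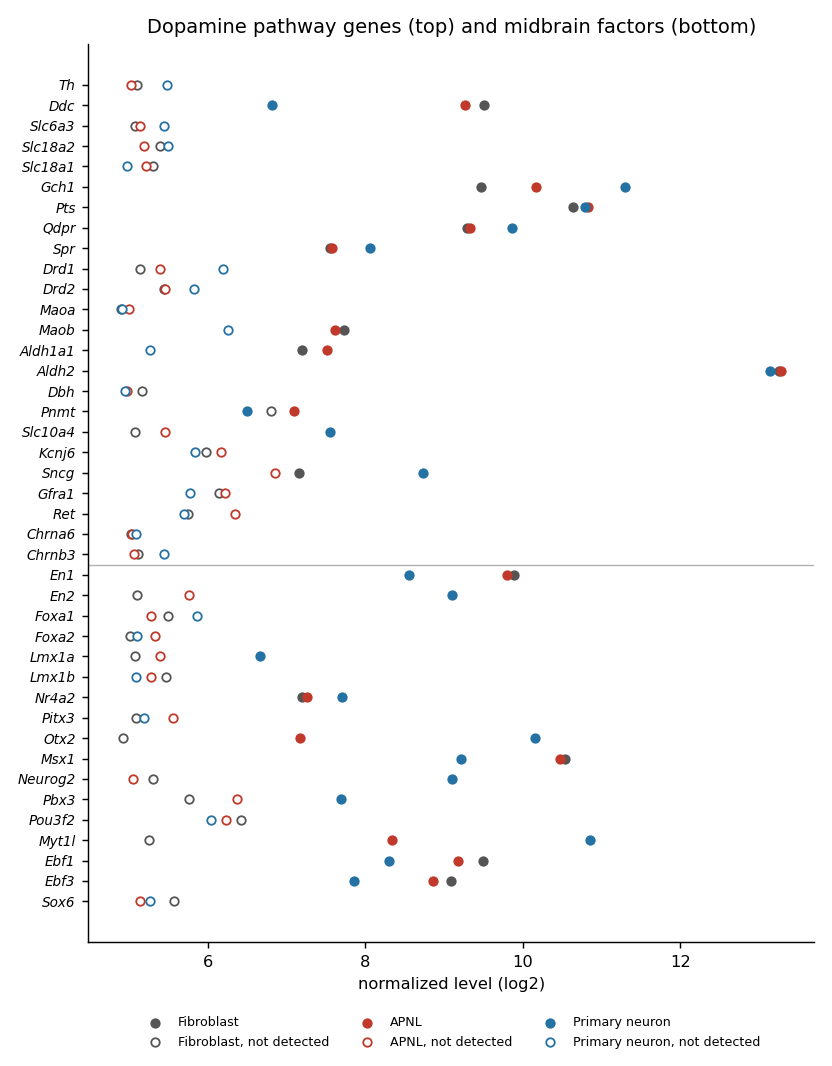
Normalized log2 levels of dopamine pathway genes (above the line) and midbrain transcription factor genes (below it) on the Fibroblast, APNL and Primary neuron arrays, 1 array each, with open circles for values below detection. Th, Slc6a3 and Slc18a2 are open on all 3 arrays, and Myt1l and Otx2 are the genes that go from open on Fibroblast to filled on APNL with the widest gaps.

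Antiviral, chemokine and acute-phase genes made up a second group. The 9 immune lists held 214 genes, of which 115 were compared. Of the 115, 23 were higher (20%) and 0 lower, beside 1.55% and 0% over all compared genes. No higher gene was shared with the neuronal lists. On APNL 0 of the 23 exceeded their Primary neuron level, and Ifit3 and Cxcl1 read 14.81 and 15.20 on Primary neuron. Ifit3, an interferon-induced antiviral gene, had the largest difference of all genes detected on both arrays, with 388 units on Fibroblast and 7774 on APNL, or 4.44. Among 28 compared interferon-stimulated genes 12 were higher, and the median was 0.83 at bounds and 1.16 as measured. Rsad2, the viperin gene, differed by 3.29, Gbp3, a guanylate-binding protein gene, by 2.04, Cmpk2, a mitochondrial kinase gene beside Rsad2, by 2.03 and Isg15, an antiviral ubiquitin-like modifier, by 1.26. Usp18 and Oasl2 were already at 10.50 and 10.96 on Fibroblast and differed by 1.32 and 1.31. Antigen presentation genes differed less, with 1 of 12 higher, Psmb9, an immunoproteasome subunit gene, at least 2.82-fold. H2-K1, a class I heavy chain gene, differed by -0.26, but closely related class I genes may share probes.

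Chemokine genes were also among the higher genes, and Cxcl1 came next after Ifit3 among genes detected on both arrays. Cxcl1, a neutrophil chemokine gene, read 661 units on Fibroblast and 12088 on APNL, a difference of 4.14, and had the highest APNL level of the 128 genes. Of 9 CXC chemokine genes 3 were higher, the others being Cxcl5 at 2.82 and Cxcl10, at least 9.10-fold. Of 12 CC chemokine genes 4 were higher, namely Ccl5 at 1.72, Ccl2 at 1.67, Ccl4 at 1.34 and Ccl3, at least 2.48-fold. All 12 were above 0, against 46.2% of all compared genes, but only 10 of the 12 were detected on Fibroblast. The rest entered through detection on APNL alone. Il6, an inflammatory cytokine gene, was at least 2.48-fold higher, and Tnfaip3, a feedback inhibitor of NF-kB, differed by 1.44. Saa3 read 187 units, not detected, on Fibroblast and 1508 on APNL, at least 10.9-fold higher on the corrected scale, a log2 bound of 3.45 that was 2.69 without background correction. In contrast, Lcn2, another acute-phase gene, was detected on APNL at 7.25 and only 1.09-fold above the bound. Complement and cathepsin genes had none of 8 and none of 11 higher, with medians of -0.03 and -0.01. With 1.55% of all compared genes higher, these counts are no result about those genes.

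**Figure D4:**
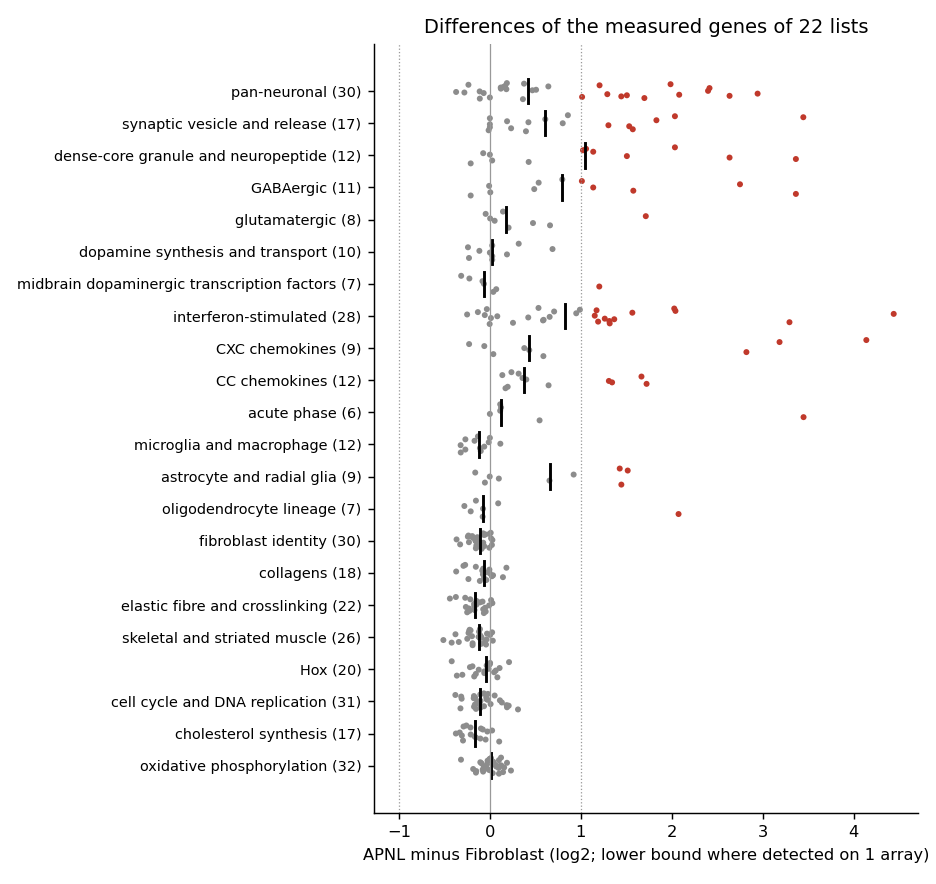
Differences between APNL and Fibroblast for the compared genes of 22 lists, log2, with the number of compared genes in brackets, lower bounds where a gene was detected on 1 array, red for genes at least 2-fold higher and a black bar at each median. Neuronal and immune lists have long right tails with medians up to 1.04, and fibroblast, matrix, muscle, Hox and metabolic lists lie between -0.51 and 0.31.

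No fibroblast gene was lower at 2-fold, as held for all 8242 compared genes (0%). The 7 lists of the starting cell (fibroblast identity, collagens, elastic fibre, small proteoglycans, integrins, Hox genes and muscle) had 129 compared genes, 0 higher and 0 lower, with a median of -0.11 and a range of -0.55 to 0.21. Col1a1, the type I collagen chain gene, read 15.77 and 15.69, Pdgfra, a growth factor receptor gene of mesenchyme, 12.71 and 12.63, and Thy1 14.81 and 14.70. The differences were small and mostly below 0: 26 of 30 fibroblast identity genes, 23 of 26 muscle genes and 20 of 22 elastic fibre genes were under 0, against 53.6% of all compared genes. Collagens (13 of 18), integrins (8 of 11) and Hox genes (14 of 20) leaned less. The lean was not particular to the starting cell. It was also seen for cholesterol synthesis (15 of 17) and endothelial genes (11 of 12), though not for respiratory chain genes (14 of 32). Emilin1, an elastic fibre glycoprotein gene, differed by -0.44, Foxd1, a mesenchymal factor gene, by -0.37 and Popdc2, a gene of striated muscle, by -0.51. Aspn, asporin, was detected on Fibroblast alone, at 7.48 against 6.46, and at least 1.46-fold lower. The Fibroblast array itself carried muscle transcripts, with Myl1, a myosin light chain gene, at 13.54 there and 13.35 on APNL, so the labelled fibroblasts were not free of muscle gene expression. None of the 20 compared Hox genes was higher or lower, beside 1.55% higher over all compared genes, and Hoxa11 was lowest at -0.42.

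Barriers to conversion and most general cell programmes also differed by less than 2-fold, the exception being 1 of 17 glycolysis genes, Aldoc, at 1.52. The 12 compared genes of the REST and PTB group, which keep neuronal genes and neuronal splicing off, had a median of -0.03 and extremes of -0.29 for the corepressor gene Rcor1 and 0.12 for Rcor2. Of 13 BAF chromatin remodeller genes none was higher or lower, with Ss18l1, a subunit gene of neuronal complexes, at 0.38. Cell cycle genes (31 compared) had a median of -0.10, cholesterol synthesis genes (17) -0.17 and respiratory chain genes (32) 0.02, with none higher or lower on these lists. Over all compared genes 1.55% were higher and 0% lower. Lss, lanosterol synthase, was the lowest cholesterol gene at -0.37, and Ccna2, the S-phase cyclin gene, the lowest cell cycle gene at -0.38. Sox21, a neural progenitor factor gene, was the exception on its list at 2.30.

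The lower side named few genes and none reached 2-fold. Washc1, a subunit gene of an endosomal actin complex, was lowest among genes detected on both arrays at 8.31 and 7.47, a difference of -0.84. Rbm10, a splicing factor gene, differed by -0.79, Pan3, a deadenylase subunit gene, by -0.76, Cdk9, the kinase of transcription elongation, by -0.72, Lamb1, a laminin chain gene, by -0.68 and Pmf1, a kinetochore gene, by -0.68. Carnmt1 and Insyn1 differed by -0.71 and -0.68. Among genes detected on Fibroblast alone Ccdc9 was at least 1.93-fold lower, Tmem175, a lysosomal potassium channel gene, at least 1.74-fold and Apol10b at least 1.65-fold. These 3 stood at 7.65 to 7.88 on Fibroblast, near its detection limit.

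Markers of other cell types were read beside the neuronal and immune groups. Ttr, transthyretin, which in brain marks the choroid plexus, was not detected on Fibroblast (5.66) and read 9.87 on APNL, at least 6.71-fold higher, and the choroid plexus and ependymal list had 2 of 8 genes with a probe detected on Fibroblast and 4 on APNL, with summed linear levels of 1789 and 2842. Astrocyte and radial glia genes had 3 of 9 compared genes higher, Aldoc at 1.52, Ttyh1 at 1.45 and Acsl6 at least 2.69-fold. The summed level of that list was 51896 on Fibroblast and 57929 on APNL. The astrocyte marker Slc1a3 read 11.74 and 12.39 on these arrays, a difference of 0.66. Aqp4 was not detected on either array and was detected on Primary neuron. Gfap was not detected on any of the 4 arrays, Primary neuron included, so its probe gave no reading. Olig1, a factor gene of oligodendrocyte precursors, differed by 2.07 and was the only higher one of 7, with Mbp, a myelin gene, at -0.21. Microglia and macrophage genes had none of 12 higher, with summed levels of 10770 and 9835 and the macrophage marker Adgre1 at 8.95 and 8.82. Endothelial genes had none of 12 higher, and the defining markers Pecam1, Cdh5 and Kdr were not detected on either array. With 1.55% of all compared genes higher, none of 12 is no result about the microglia or endothelial lists. None of 9 erythroid genes was detected on Fibroblast or APNL, and Hba-a1 read 5.02 and 5.24 there against 11.24 on Primary neuron. The part of these cell types in the neuronal and immune differences was not tested.

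All 128 higher genes were also detected on the Primary neuron array, and on each of them the APNL level lay between those of Fibroblast and Primary neuron. Being above Fibroblast is how these genes were called, and the Primary neuron array had a part in the joint normalization and in choosing each gene's probe. With probes averaged, 95 of the 128 were called. Whether RNA or cells of the neuron culture were present in the APNL sample was not tested. Shares of the Primary neuron level and the calls of neuronal or immune genes cannot tell such RNA from expression in fibroblasts or converted cells. Ttr and Otx1, genes of choroid plexus and cortex, were among the 128, while the erythroid gene Hba-a1, at 11.24 on Primary neuron, was not detected on APNL. Median levels were 7.51 on Fibroblast, 9.37 on APNL, 10.49 on APNL+AuEMF and 11.90 on Primary neuron. With the offset removed, on the linear scale, the APNL level was 6.71% to 66.1% of the Primary neuron level, with a median of 17.7% and quartiles of 13.7% and 27.5%. For the 31 higher genes of the neuronal lists this median was 14.4% (7.11% to 40.1%) and for the 23 of the immune lists 34.0% (11.9% to 62.2%), a difference given as a description. Nsg2 stood at 9.2% of its Primary neuron level, Dcx at 7.6%, Ttr at 12.3%, Gad1 at 20.1%, Ifit3 at 27.0% and Il6 at 50.7%. On APNL+AuEMF all 128 were higher than on APNL, for example Sst at 10.86 and 12.28, and 10 exceeded Primary neuron there. Transcription factor genes of the developing brain were among them: Insm1, a neuroendocrine differentiation factor gene, read 5.39, 9.31, 10.48 and 11.90 on Fibroblast, APNL, APNL+AuEMF and Primary neuron, and Otx1, a cortical factor gene, 5.67, 9.06 and 10.39 on the first 3 of these.

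**Figure D5:**
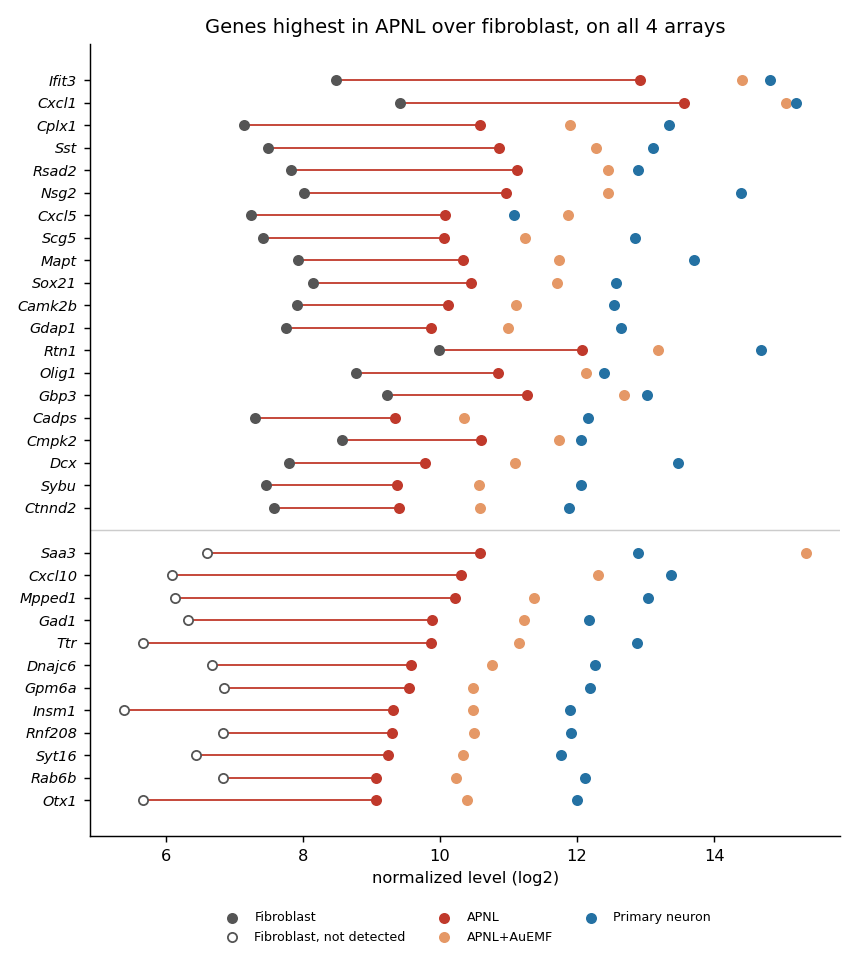
Normalized log2 levels on the 4 arrays of the 20 genes with the largest differences among those detected on both arrays (upper block) and the 12 with the largest bounds among those detected on APNL alone (lower block), with open circles for values below detection and a red line from Fibroblast to APNL. In each of the 32 genes the APNL point lies to the right of Fibroblast and to the left of both APNL+AuEMF and Primary neuron.

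The named genes covered part of the higher set. Of the 128 genes 63 were on at least 1 of the 54 lists and 65 on none. Among those on none, Mpped1, a gene of fetal brain, was at least 8.50-fold higher, Dnajc6, the neuronal auxilin gene of clathrin uncoating, at least 5.44-fold, Rab6b, a neuronal Rab gene, at least 3.83-fold and Syt16, a synaptotagmin-like gene, at least 4.32-fold. Gdap1, a mitochondrial gene of peripheral nerve, differed by 2.12, Sybu, a gene of axonal transport, by 1.92 and Ctnnd2, a neuronal catenin gene, by 1.82. Rnf208 was at least 4.51-fold higher.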

How the data were processed

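Total RNA (0.55 ug per array, per the labels) of 4 samples was hybridised to 4 arrays. GenomeStudio 2011.1 is the software in the submitters' processing notes. For each of 25697 probes a linear intensity and a detection p-value were deposited without normalization, and whether background was subtracted is not given in the sources used here. Log2 values were deposited too. These equal quantile-normalized log2 intensity to within 5e-07. Detected probes numbered 10643 on Fibroblast and 11030 on APNL, with median intensities of 169 and 174, and precision is limited by the number of arrays.

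Main values came from neqc in limma 3.58.1 (R 4.3.3), with control information inferred from the detection p-values, an offset of 16 and the 4 arrays normalized together. Probes were named from the platform annotation (23978 with 1 symbol, 0 with several, 1719 with none), and each gene took the probe whose mean over the 4 arrays was highest. Genes were named by a fixed rule: the factors, the 20 highest and 8 lowest differences among genes detected on both arrays, the 12 highest and 6 lowest bounds, up to 4 genes with the largest difference from each list and all detected dopamine and midbrain genes. Defining markers of cell types, second probes and a few list members were added for description after their values were seen. The members and the 54 lists (1260 genes, 1113 with a probe) were chosen with earlier results of these data known. No test was computed. The steps were tested on simulated data. Calculations used Python 3.11.15, numpy 2.4.6 and pandas 2.3.3. The alternatives changed background correction, normalization, detection, probe summary and threshold.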

Additional observations from a re-analysis of the deposited data

How the results depend on the processing

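In place of 128 higher genes there were 78 when background was not corrected, 78 with the deposited log2 values, 77 when only genes detected on both arrays entered, 286 with no filter and no bounds, 52 at 3-fold and 262 at 1.5-fold. All of the genes counted in the first 3 of these and at 3-fold were among the 128. The count of 0 lower genes was 3 with detection p under 0.05, 35 with no filter and no bounds and 42 at 1.5-fold. Under the other alternatives run (normexp with an offset of 50, scaling to a common median, the 2 arrays normalized alone, averaging the probes of each gene, and, for higher genes, detection p under 0.05) the higher count lay between 90 and 192, and with the first 4 of these the lower count was 0. The median of all genes moved by less than 0.01 in each. Of 477 recomputed list medians 1 moved by over 1.5-fold (the dense-core granule list, 0.41 with detection p under 0.05). Most list medians were themselves under 1.5-fold, so this rule could not register their loss. With probes averaged, the pan-neuronal median went from 0.42 to 0.16 and the astrocyte and radial glia median from 0.66 to 0.10. Of 2052 recomputed values of named genes 98 moved by over 1.5-fold. None of the 98 had a reversed sign among genes called higher, but a bound stops at 0 and cannot reverse. The causes were not tested. The 51 of the 128 that were not detected on Fibroblast rest on bounds. Some of the other 77 also stood close to the Fibroblast limit of 7.13, such as Cplx1 at 7.14 and Aldoc at 7.13. The 1.5-fold threshold was added after the data were seen. No paired analysis was possible because each group has 1 array.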

Other observations

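Stress, growth-arrest and protease genes showed differences near or under 2-fold. Cdkn2a, a tumour suppressor gene of growth arrest, was detected on APNL alone at 7.98 and at least 1.80-fold higher, with 9.50 on APNL+AuEMF and 9.85 on Primary neuron. Nqo1, a detoxifying enzyme gene, differed by 0.73, and Mt2, a metallothionein gene, by 0.65. Nrarp, a Notch feedback gene, was at least 1.96-fold higher, and Nnat, an imprinted gene of neuroendocrine cells, at least 2.03-fold. Atf4, a stress response factor gene, differed by -0.60 and Hspa5, an endoplasmic reticulum chaperone gene, by -0.48. The matrix protease genes Mmp3 and Mmp24 were higher by 1.22 and at least 2.07-fold, while Adamts1, another matrix protease gene, differed by -0.65.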
